A study of Mus musculus with 6 samples.

Results

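The neuregulin and ErbB genes examined here were Nrg1, Nrg2 and Nrg3, which encode ligands, and Egfr, Erbb2, Erbb3 and Erbb4, which encode receptors. All probe sets that the array annotation assigns to one of these symbols alone were taken, which gave 17 of the 45037 probe sets that are not controls. Egfr had 7 probe sets, Nrg2 had 3, Nrg3 and Erbb3 had 2 each, and Nrg1, Erbb2 and Erbb4 had 1 each.

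The RNA was bound to tagged ribosomes of S100a10-expressing cells of the mouse cortex and was isolated by translating ribosome affinity purification (TRAP), in which a transgene driven by the S100a10 gene on a bacterial artificial chromosome (line ES691) labels the ribosomes of those cells. All mice, in both groups, also carried a constitutive knockout of p11, the protein product of S100a10, and came from FVB by 3 to 5 generations of backcrossing to C57BL/6; the labels used here give neither their age and sex nor whether animals were pooled. The fluoxetine group (FLX, 3 arrays) drank fluoxetine, a selective serotonin reuptake inhibitor, at 0.167 mg/ml in 1% saccharine, and the vehicle group (VEH, 3 arrays) drank 1% saccharine without it, each for 15 to 18 days. The comparison asks what the drug does to translated mRNA in these cells when p11 is missing, and no wild-type array was analysed here.

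Neuregulins are made as membrane-bound precursors with an EGF-like domain, and proteases such as BACE1 and ADAM17 cleave them so that the domain can reach a receptor. They bind ErbB3 and ErbB4, and Nrg3 binds ErbB4 selectively. ErbB2 has no known direct ligand and acts as a partner of the other receptors, ErbB3 has an impaired kinase, and Egfr binds EGF, transforming growth factor alpha and related ligands. In the cortex Erbb4 is known from inhibitory interneurons, Erbb3 from the oligodendrocyte lineage and Egfr from progenitors and astroglia, while pyramidal neurons are a source of neuregulins.

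Replicate 3 differed from the other arrays in both groups. On the log2 scale its arrays correlated with replicates 1 and 2 at r = 0.867 to 0.916, whereas replicates 1 and 2 of both groups correlated with each other at r = 0.987 to 0.995. Median values were 38.5 to 41.9 per array. The transgene also labels non-neuronal cells, per the submitters, and pyramidal neuron markers were present, with 12 of 12 genes tested, beside markers of every other cortical cell type examined. The deleted gene, S100a10, had 3 probe sets, of which an x_at probe set that can match other transcripts lay between 349 and 3111 and the other 2 stayed under 50. No source used here places these probes relative to the deletion, and they check nothing about the genotype. Values are GCRMA-normalized intensities on a linear scale. They are compared here only within a probe set, since brightness differs between probes for reasons other than RNA level.

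Of the 17 probe sets, 6 reached a mean of 50 in at least 1 group and were tested. These were 1 each for Nrg1, Nrg2 and Nrg3 and 3 for Egfr. None of the receptors Erbb2, Erbb3 and Erbb4 had a tested probe set. Across all 22200 probe sets tested, 0 passed limma's test at an adjusted p of 0.05 (0% of those tested), and 83 had an unadjusted p under 0.05. Of the 6 tested neuregulin and Egfr probe sets 0 passed, and 0 had an unadjusted p under 0.05. Their adjusted p was 1.00 for each. Nrg1 had the highest log2 difference (FLX minus VEH) of the 6, at 0.65, and the other 5 lay between -0.30 and 0.24.

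**Figure D1:**
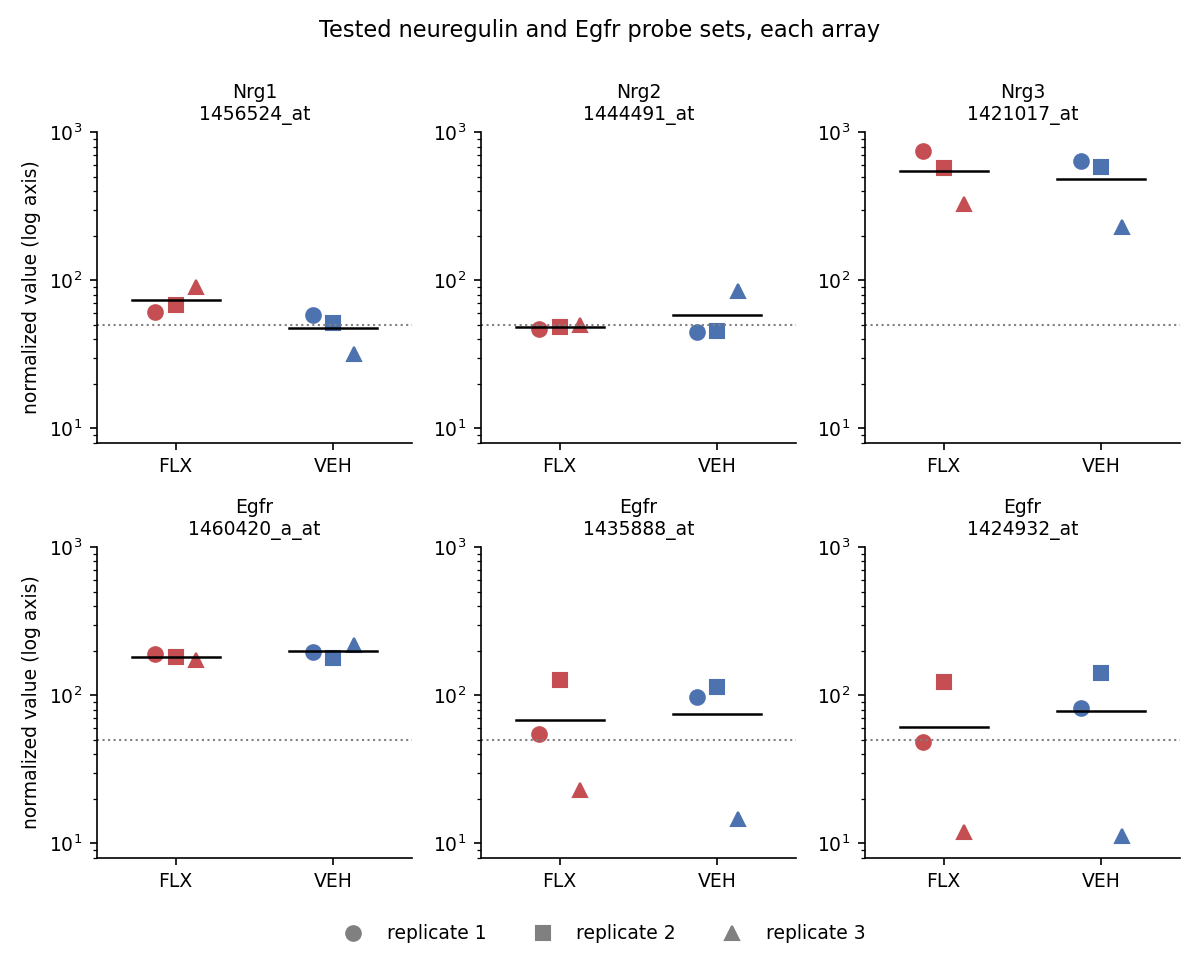
Normalized values (log axis) of the 6 tested probe sets in each array, FLX left of VEH, with a marker shape for each replicate number, the group mean as a black line and the minimum of 50 as a dotted line. The 3 FLX arrays of Nrg1 sit above the 3 VEH arrays, and 2 of the 3 Egfr probe sets fall far below the rest in the replicate 3 array of both groups.

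Nrg1, the neuregulin best known for oligodendrocyte, interneuron and synapse development, was measured by probe set 1456524_at. It gave 61.5, 67.8 and 90.0 across the FLX arrays (replicates 1 to 3), against 58.5, 51.6 and 31.9 across the VEH arrays. The groups did not overlap, but FLX replicate 1 and VEH replicate 1 were close, and replicate 3 held the highest FLX and the lowest VEH value. The means were 73.1 ± 15.0 in FLX and 47.3 ± 13.8 in VEH arrays (SD, n = 3 each). The log2 difference was 0.65 (SE 0.30), with a 95% interval of -0.09 to 1.40, which is a fold of 1.57 with an interval of 0.941 to 2.63. Limma gave an unadjusted p of 0.0745 and an adjusted p of 1.00. An exact two-sided permutation test gave p = 0.1, the smallest that 3 arrays against 3 allow.

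The difference of Nrg1 was positive in 3 of 3 pairs of equal replicate number, at 0.07, 0.39 and 1.497 in pairs 1, 2 and 3. That sign, like the smallest possible permutation p, follows from the lack of overlap and is no further evidence. Among all probe sets tested, 2.55% had all FLX arrays above all VEH arrays and 19.6% were higher in FLX in 3 of 3 pairs. Of the 6 tested probe sets only that of Nrg1 had no overlap, as had the untested Erbb3 1434606_at, and the Nrg1 probe set passed the minimum through FLX alone, where its mean was higher. Without VEH replicate 3 the Nrg1 difference was 0.39, and without both replicate 3 arrays 0.23 (adjusted p = 0.798 by limma). With the replicate number as a block the unadjusted p was 0.0451 and the adjusted p 0.623, and over all alternatives the adjusted p from limma ran from 0.353 to 1.

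Nrg2, a neuregulin close in sequence to Nrg1, gave 46.6, 48.6 and 49.8 across the FLX arrays (replicates 1 to 3), against 44.7, 45.6 and 85.3 across the VEH arrays (probe set 1444491_at). It reached the minimum of 50 through VEH replicate 3 alone, and the other 5 arrays lay within a narrow range just under 50. The log2 difference was -0.21 (SE 0.30), with a 95% interval of -0.94 to 0.52. In pairs 1 and 2 FLX was above VEH, by 0.06 and 0.09, and in pair 3 the difference was -0.78. Without VEH replicate 3 the difference was 0.10, of opposite sign. The other 2 probe sets of Nrg2 were under the minimum, 1447654_at between 12.7 and 17.5 and 1457283_at between 3.59 and 3.91.

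Nrg3, the ErbB4-selective neuregulin of the nervous system, gave 746, 570 and 328 across the FLX arrays (replicates 1 to 3), against 642, 582 and 228 across the VEH arrays (probe set 1421017_at). All 6 arrays were above 50, the groups overlapped, and replicate 3 was the lowest array of each group. The log2 difference was 0.24 (SE 0.51), with a 95% interval of -0.997 to 1.47 and values of 0.22, -0.03 and 0.53 in pairs 1, 2 and 3. With the replicate number as a block the interval was -0.17 to 0.65. The sign of the difference turned, to -0.24 without VEH replicate 3 and to -0.02 without FLX replicate 1, while without FLX replicate 3 the difference was 0.57. The other probe set of Nrg3, 1460289_at, was under the minimum and lay between 17.3 and 21.3 in all arrays.

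Egfr, the receptor for EGF and transforming growth factor alpha, was measured by 3 tested probe sets that did not behave alike. Probe set 1460420_a_at gave 190.0, 181 and 174 across the FLX arrays (replicates 1 to 3), against 197, 179 and 218 across the VEH arrays. These 6 values lay close together, replicate 3 included. The log2 difference was -0.12 (SE 0.18), with a 95% interval of -0.57 to 0.32, the narrowest of the 6 tested probe sets.

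Probe set 1435888_at of Egfr gave 54.3, 127 and 23.0 across the FLX arrays (replicates 1 to 3), against 97.5, 113 and 14.5 across the VEH arrays. Probe set 1424932_at gave 48.5, 122 and 11.99 across the FLX arrays (replicates 1 to 3), against 82.2, 142 and 11.3 across the VEH arrays. In both, replicate 3 was the lowest array of each group, replicate 2 the highest, and the groups overlapped. The log2 differences were -0.00 (SE 0.98) for 1435888_at and -0.30 (SE 1.21) for 1424932_at. Their 95% intervals, -2.39 to 2.38 and -3.24 to 2.65 without the replicate block, were wide and include 0. With the replicate number as a block the intervals were -0.65 to 0.64 and -0.77 to 0.18 around the same differences, which also include 0.

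In the pairs, 1435888_at differed by -0.84, 0.17 and 0.66 and 1424932_at by -0.76, -0.22 and 0.09, so neither kept a direction. Left out in turn, single arrays moved the difference of 1435888_at between -0.95 and 0.62 and that of 1424932_at between -1.38 and 0.60, in both cases from the array left out being VEH replicate 3 to its being FLX replicate 3. Without both replicate 3 arrays the differences were -0.33 and -0.49 (adjusted p = 0.868 and 0.843 by limma, which over all alternatives did not go below 0.677 and 0.545). The other 4 Egfr probe sets were under the minimum, between 3.44 and 8.16. Which transcripts each Egfr probe set matches was not tested.

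**Figure D2:**
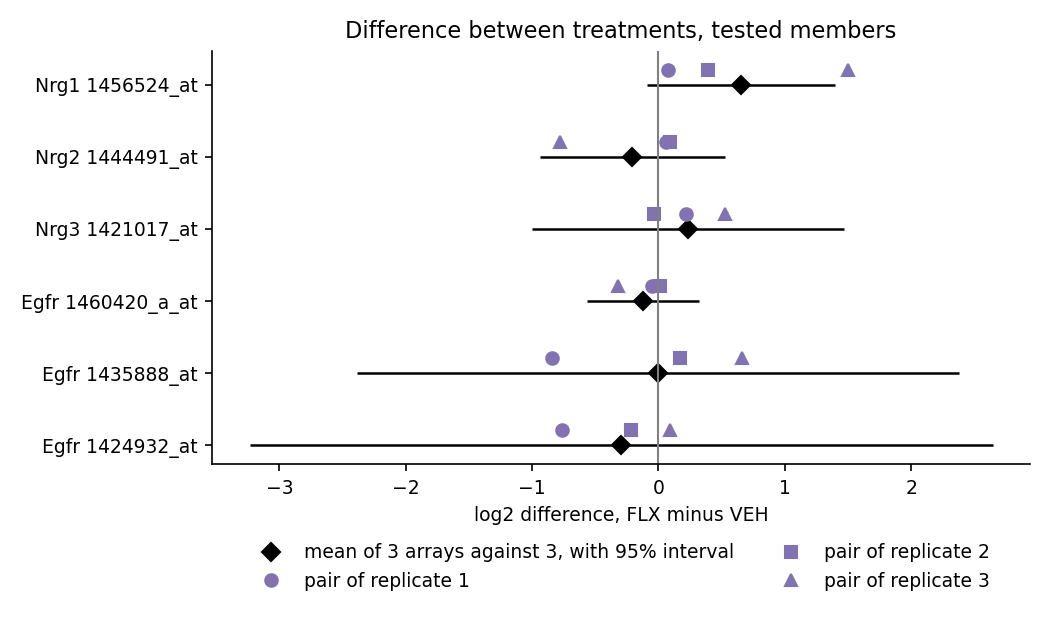
Log2 difference, FLX minus VEH, of the 6 tested probe sets, with the mean and its 95% interval from limma in black and the 3 pairs of equal replicate number above it. These intervals are without the replicate block. That of every probe set includes 0, Nrg1 has all 3 pairs at or above 0.07, and 2 of the Egfr intervals are more than 4 log2 units wide. With the block, which is not drawn, the interval of Nrg1 was 0.02 to 1.29.

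Nrg3 and Egfr are the 2 tested genes with an entry in the RefSeq promoter table, which holds 4 of the 7 genes, and both had probe sets that were lower in replicate 3 of each group, so their upstream sequence is shown. The 250 bases upstream of the annotated start are printed 5′ to 3′ on the strand of the gene, in build GRCm38.p6, for Egfr on the plus strand at chr11:16751953-16752202 and for Nrg3 on the minus strand at chr14:39473089-39473338. Capitals mark the GC box GGGCGG or its complement CCGCCC.
Egfr: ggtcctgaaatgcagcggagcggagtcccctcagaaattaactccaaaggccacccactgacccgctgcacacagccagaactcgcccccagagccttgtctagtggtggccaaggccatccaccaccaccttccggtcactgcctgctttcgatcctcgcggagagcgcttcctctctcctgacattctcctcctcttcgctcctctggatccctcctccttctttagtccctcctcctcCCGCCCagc
Nrg3: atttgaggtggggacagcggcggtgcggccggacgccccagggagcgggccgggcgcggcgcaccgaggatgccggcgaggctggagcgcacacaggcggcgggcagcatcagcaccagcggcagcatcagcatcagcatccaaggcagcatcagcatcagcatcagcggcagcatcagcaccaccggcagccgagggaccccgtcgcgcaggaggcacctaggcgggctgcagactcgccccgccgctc
The Egfr window held 1 GC box, which 33.0% of 32536 such windows hold on either strand, and the Nrg3 window 0. Neither held TATAAA, which 12.3% hold, nor the cyclic AMP response element TGACGTCA, which 1.56% hold. G and C made up 60.8% of the Egfr and 72.4% of the Nrg3 window, against a median of 52.4% over all windows.

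The 3 ErbB receptors that take part in neuregulin signalling stayed under 50 in every array. Erbb3 gave 25.9, 27.8 and 25.8 across the FLX arrays (replicates 1 to 3), against 24.6, 25.5 and 22.2 across the VEH arrays (probe set 1434606_at). Its second probe set lay between 10.7 and 12.7. Erbb4 gave 16.7, 22.9 and 20.4 across the FLX arrays (replicates 1 to 3), against 14.9, 15.9 and 31.0 across the VEH arrays (probe set 1427783_at). Erbb2 gave 9.08, 8.83 and 9.25 across the FLX arrays (replicates 1 to 3), against 8.85, 8.85 and 9.35 across the VEH arrays (probe set 1424919_at). These values were below the median of every array and were not tested, so they show neither a change nor the absence of the transcripts.

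Most markers of the cell types in which these receptors are known passed the minimum in these arrays. Of 12 oligodendrocyte markers on the array 11 were tested and Gjb1 stayed under 50 in all arrays, with a summed level of 28124 to 75133 in FLX and 28216 to 70018 in VEH arrays. Of 14 interneuron markers 13 were tested and Dlx5 stayed under 50 in all arrays, with a summed level of 29530 to 51218 in FLX and 24580 to 39521 in VEH arrays. Both sums were highest in replicate 3 of each group, but the 2 brightest genes weigh most in each, Cnp and Mbp or Gad1 and Cck. Of these, Cnp, Mbp and Gad1 were higher in replicate 3 of both groups and Cck was lower. In replicate 3 of both groups 6 of the 11 oligodendrocyte markers were higher than the mean log2 value of replicates 1 and 2 and 4 were lower (Cldn11, Mag, Ugt8a and Aspa), and 11 of the 13 interneuron markers were higher and 2 lower (Slc32a1 and Cck). The main Erbb3 probe set differed by -0.06 and -0.17 in replicate 3 from the mean of replicates 1 and 2 (log2, FLX and VEH), and Erbb4 by 0.06 and 1.01.

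**Figure D3:**
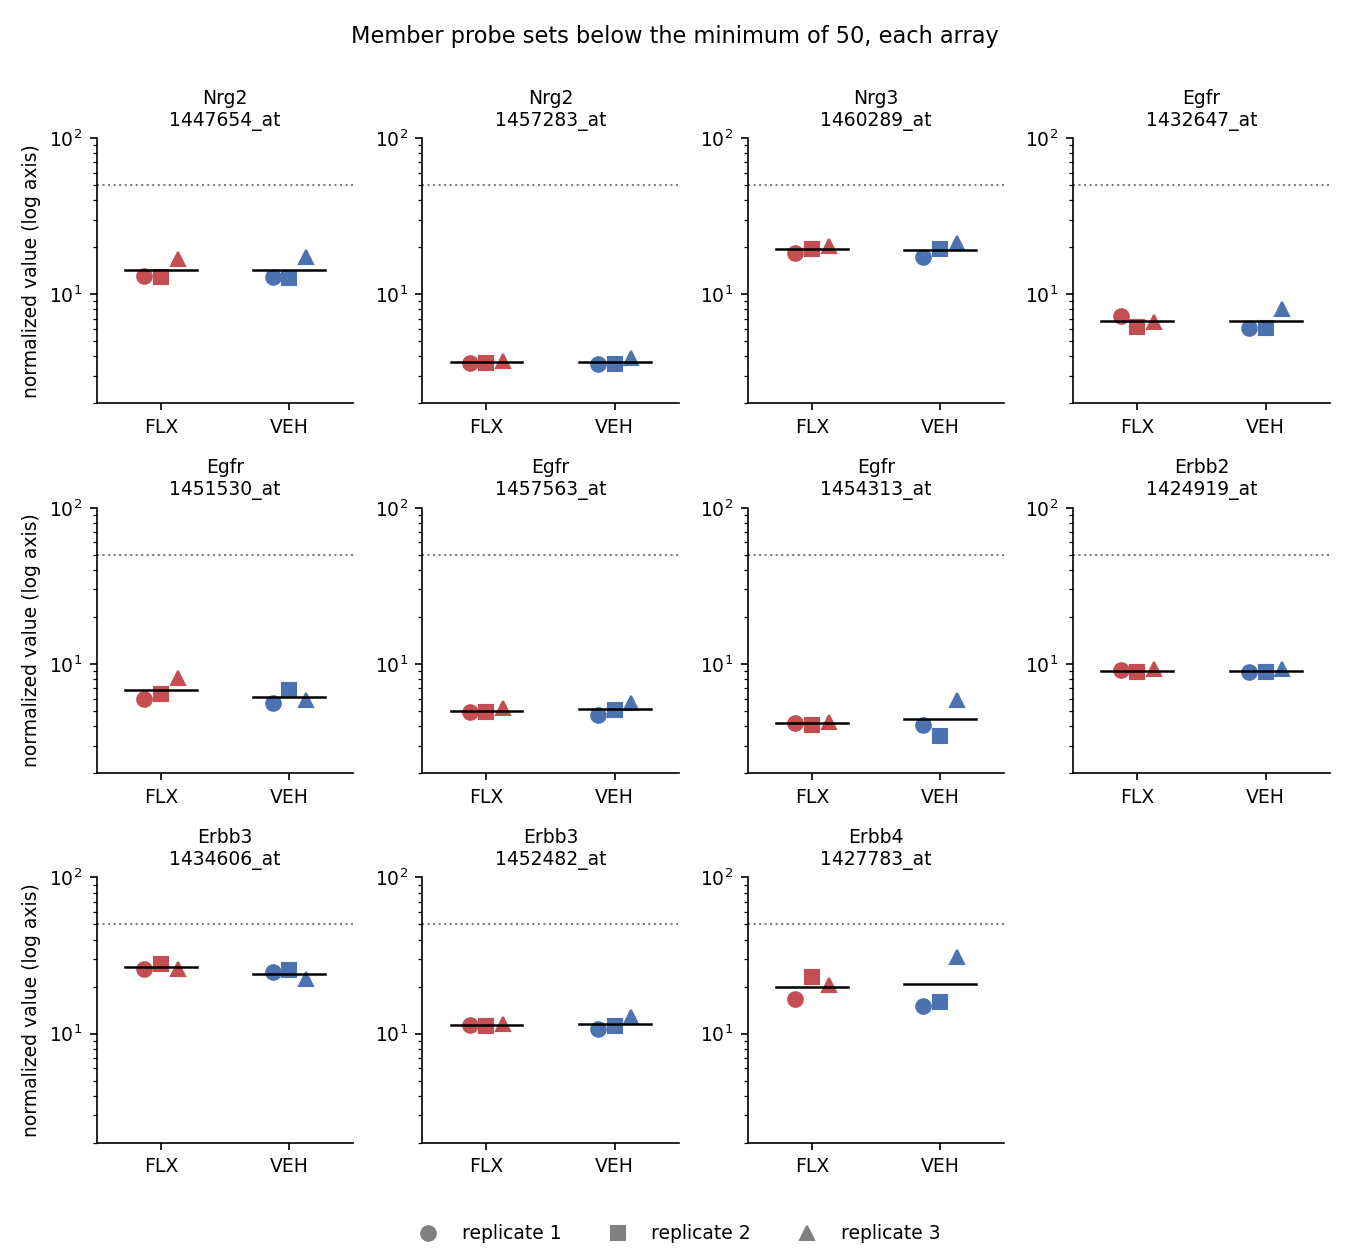
Normalized values (log axis) of the 11 probe sets that stayed under 50, FLX left of VEH, with a marker shape for each replicate number, the group mean as a black line and 50 as a dotted line. All values lie between 3.44 and 31.0, and the VEH replicate 3 value of Erbb4 is the highest.

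The variation of Nrg3 and of Egfr 1424932_at and 1435888_at followed the replicate number more than the treatment. Relative to the mean of replicates 1 and 2 of the same group, replicate 3 differed on the log2 scale by -2.68 in FLX and -3.26 in VEH arrays for Egfr 1424932_at, by -1.86 and -2.85 for Egfr 1435888_at and by -0.99 and -1.42 for Nrg3. A drop at least as large in both groups was seen in 1.41%, 3.00% and 12.4% of all tested probe sets. Egfr 1460420_a_at differed by only -0.09 and 0.21. Nrg1 differed by 0.48 in FLX and -0.79 in VEH arrays, and Nrg2 by 0.06 and 0.92, so the treatments moved apart in replicate 3 for these ligands. These replicate differences were noticed in the data and carry no test.

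Marker lists of other cells also differed in replicate 3, in both directions. Pyramidal neuron markers, 12 of 12 tested, were higher in both groups in 7 genes and lower in both in 3, with medians of 0.29 (FLX) and 0.65 (VEH). Of 6 tested oligodendrocyte precursor markers 5 were higher and 1 lower in both groups, with medians of 0.69 (FLX) and 0.43 (VEH). Leptomeningeal and fibroblast markers were lower in replicate 3 of both groups in 14 of 14 genes, the median being -3.72 for FLX and -3.41 for VEH. Their summed level ran from 5204 to 117213 in FLX and from 11945 to 109896 in VEH arrays, and 0 of the 14 were under 50 in all arrays. Genes of pericytes and smooth muscle had medians of -2.01 (FLX) and -2.47 (VEH) over 5 tested members, 3 of them lower and 2 higher in both groups, with summed levels of 2122 to 5161 in FLX and 2219 to 8467 in VEH arrays, and Myh11, Kcnj8 and Abcc9 were under 50 in all arrays. Astrocyte markers, 12 of 12 tested, were lower in both groups in 6 genes and higher in both in 4, with medians of -0.17 and -0.65 and summed levels of 41510 to 61302 in FLX and 42225 to 53427 in VEH arrays. Microglia and macrophage markers were lower in both groups in 7 of 9 tested genes, with medians of -0.58 (FLX) and -1.86 (VEH), summed levels of 2691 to 4666 in FLX and 2032 to 4633 in VEH arrays, and Itgam under 50 in all arrays. Endothelial markers were lower in both groups in 3 of 4 tested genes, with medians of -0.47 (FLX) and -1.67 (VEH), summed levels of 316 to 496 in FLX and 281 to 492 in VEH arrays, and Pecam1, Tek and Flt1 under 50 in all arrays. The part of these cells in the Egfr and Nrg3 values was not tested, and in such bulk samples fewer cells of a type and less RNA per cell cannot be told apart.

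**Figure D4:**
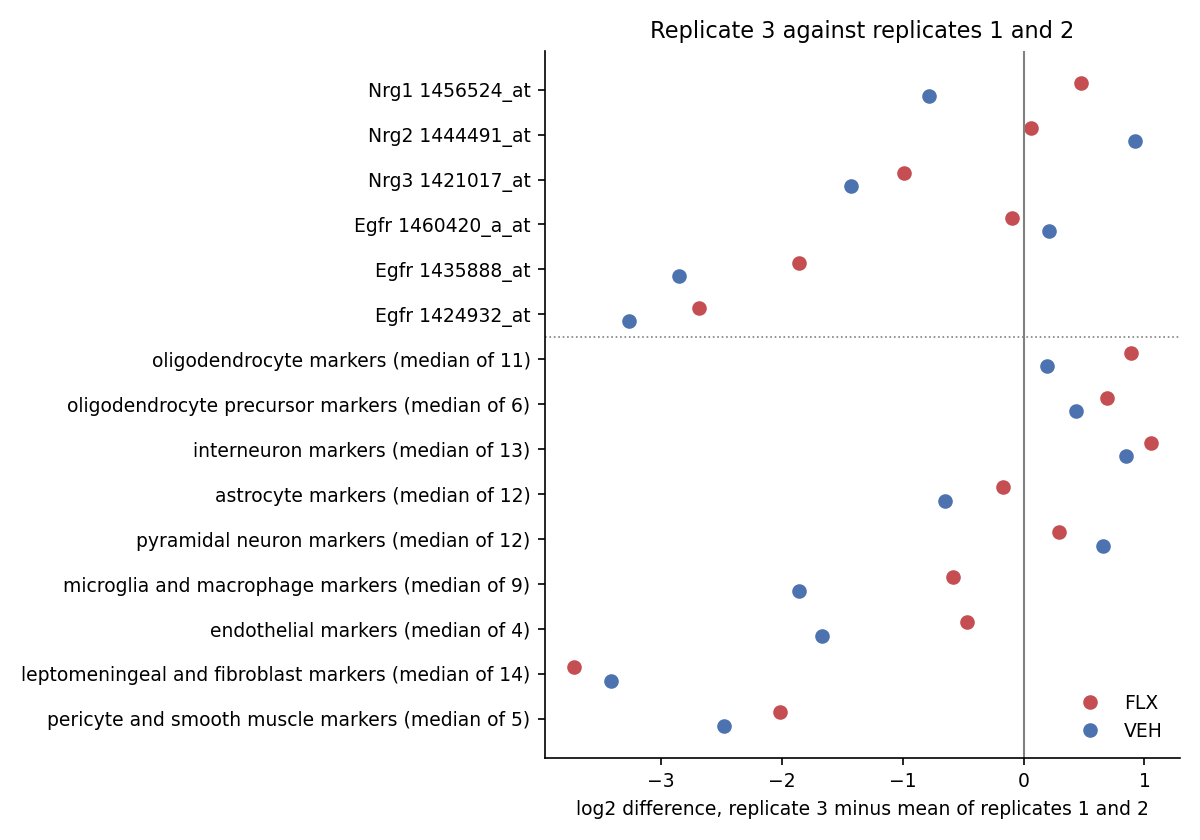
Log2 difference between replicate 3 and the mean of replicates 1 and 2, in FLX and in VEH arrays, for the 6 tested probe sets (above the dotted line) and as the median of each marker list (below it). Egfr 1435888_at and 1424932_at lie below 0 in both groups, as do the medians of the leptomeningeal and fibroblast, pericyte and smooth muscle, microglia and macrophage, endothelial and astrocyte markers, while Egfr 1460420_a_at lies near 0. The medians of the oligodendrocyte, oligodendrocyte precursor, interneuron and pyramidal neuron markers lie above 0 in both groups.

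The genes whose profile over the 6 arrays was most like each member were found by the root mean square difference of log2 values, each centred on its own mean, among all tested probe sets with a single symbol. For Nrg1 they were Kctd5, Nit2 and Tubgcp5, at 0.07, 0.11 and 0.11, where Nrg1 itself varied with a standard deviation of 0.45 around its mean. For Nrg3 they were Rbis, Nrn1 and Mospd1, at 0.07, 0.07 and 0.08. Nrn1 encodes neuritin, a neurite growth protein of neurons, and gave 9568, 8392 and 4570 across the FLX arrays (replicates 1 to 3), against 8228, 8130 and 2984 across the VEH arrays. For Nrg2 they were Serpinf2, Grin2d and 4930542D17Rik, at 0.03, 0.03 and 0.04, all 3 of them dim and highest in VEH replicate 3, as Nrg2 was. The shared high array follows from choosing the nearest profiles. A total of 1875 genes lay within 0.25 of Nrg2, 288 of Nrg1 and 577 of Nrg3. The standard deviation was 0.32 for Nrg2 and 0.60 for Nrg3. A fixed distance takes in more genes where the spread is small, so these counts do not show how common a profile was.

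For the brightest Egfr probe set, 1460420_a_at, the nearest were Pwwp2a, Clta and Use1, at 0.03, 0.03 and 0.04, and 3911 genes lay within 0.25. The other Egfr probe sets, examined in the same way after their values were seen, had fewer genes that close. Their standard deviations were 1.48 (1424932_at) and 1.19 (1435888_at), against 0.11 for 1460420_a_at. A fixed distance takes in fewer genes where the spread is wide, so the counts do not compare how distinct the profiles were. For 1424932_at the nearest were Nt5e, an enzyme that makes extracellular adenosine, H2-Ab1, a class II antigen presentation gene, and Atp10a, at 0.10, 0.13 and 0.14, with 48 genes within 0.25. For 1435888_at they were Pm20d1, Cyp2d22 and Arhgap18, at 0.10, 0.12 and 0.13, with 80 genes within 0.25. The likeness rests on 6 arrays that share the replicate 3 difference.

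The other genes of the pathway, in 4 lists, had 57 members tested by their brightest probe set, of which 0 passed limma's test at an adjusted p of 0.05 in either direction. Of the 57, 35 had a positive log2 difference and the median was 0.03, against a median of 0.04 and 57.2% positive over all probe sets tested. Their FLX and VEH arrays did not overlap in 3 genes that were higher in FLX, Socs5, Nras and Fyn, and in 1 that was lower, Map2k2. The same criterion was met by 2.55% and 1.79% of all tested probe sets.

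Among the other ErbB ligands, 2 of the 7 on the array were tested, with a median of -0.17. Tgfa, which encodes the Egfr ligand transforming growth factor alpha, gave 168, 199.6 and 137 across the FLX arrays (replicates 1 to 3), against 217, 198 and 175 across the VEH arrays. Hbegf, which encodes a ligand of Egfr and ErbB4, gave 111, 117 and 35.2 across the FLX arrays (replicates 1 to 3), against 92.6, 95.9 and 62.9 across the VEH arrays. The groups overlapped for both, with log2 differences of -0.24 (SE 0.22) for Tgfa and -0.09 (SE 0.51) for Hbegf.

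Of 6 tested genes for ligand cleavage, 3 were positive and the median was -0.04. Bace1, which encodes the protease that cleaves Nrg1, had means of 1358 in FLX and 1353 in VEH arrays. Adam17 and Adam10, which encode sheddases of EGF family ligands, had log2 differences of -0.28 (SE 0.71) and 0.19 (SE 0.53). With the replicate number as a block the SE was 0.16 for Adam17 and 0.17 for Adam10. In replicate 3 Adam17 differed from the other replicates by -1.54 in FLX and -1.77 in VEH arrays and Adam10 by -1.12 and -1.46, the same direction as Nrg3 and the 2 variable Egfr probe sets. Of the 6 genes 4 were lower in replicate 3 of both groups and 2 higher (Nrd1 and Rhbdf2). Among all probe sets tested, 38.8% were lower in both.

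Of 16 tested ErbB regulators and scaffolds 12 were positive, with a median of 0.07. Erbin, which encodes a scaffold that binds ErbB2, gave 1920, 2512 and 2280 across the FLX arrays (replicates 1 to 3), against 3153, 2842 and 2329 across the VEH arrays. The groups overlapped, and the log2 difference was -0.31 (SE 0.22). Sh3gl2, which encodes an endophilin of receptor endocytosis, differed by 0.28 (SE 0.23).

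Of 33 tested adaptors and downstream kinases 20 were positive, with a median of 0.08. Map2k2, the kinase MEK2 that activates ERK, gave 2633, 2657 and 2244 across the FLX arrays (replicates 1 to 3), against 2979, 3095 and 3016 across the VEH arrays. All FLX arrays were below all VEH arrays, at a log2 difference of -0.27 (SE 0.18, unadjusted p = 0.179 by limma across all probe sets). Nras, a Ras GTPase upstream of that kinase, gave 810.4, 721 and 808 across the FLX arrays (replicates 1 to 3), against 680.4, 683 and 554 across the VEH arrays. All FLX arrays were above all VEH arrays, at 0.29 (SE 0.19, unadjusted p = 0.180 by limma).

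**Figure D5:**
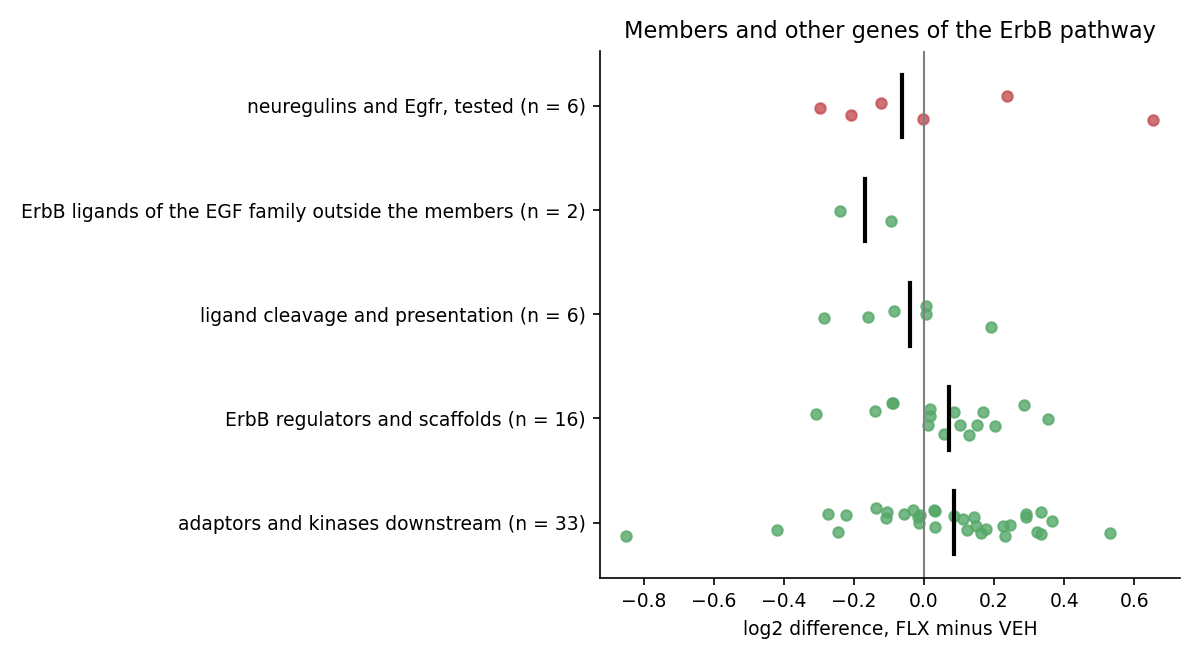
Log2 difference, FLX minus VEH, of the 6 tested neuregulin and Egfr probe sets (top row) and of other tested genes of the ErbB pathway in 4 lists, each point a gene by its brightest probe set in the lower rows, with the median of each row as a black bar (height within a row has no meaning). The medians lie between -0.17 and 0.08, and Nrg1 at 0.65 is the highest point of the plot.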

How the data were processed

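The table holds 1 column per array (6 arrays, 1 colour, Affymetrix probe set names). The deposited values are intensities per probe set, normalized by the authors with GCRMA per the submitters' processing notes (version not given in the sources used here), from 15 ng of TRAP RNA amplified in 2 cycles per the labels' protocols. Their linear scale was read from the values, and the number of arrays limits the precision. Probe sets were named from the platform annotation: 34945 have 1 gene symbol, 932 several and 9160 none here, 64 controls were left out, and all 7 symbols are current.

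The fit of FLX against VEH used limma 3.58.1 (R 4.3.3) on log2 values, with treatment as the only term and Benjamini-Hochberg adjustment over the 22200 probe sets with a mean of 50 or more in at least 1 group. The fit was tested on simulated data. Errors are SD over 3 arrays or limma's SE, intervals are 95%. The labels call the replicates biological but name no animals. Members, lists and the naming rule (all members, the 2 pathway genes per list with the smallest p, the 3 nearest profiles, markers where a result turns on them) were chosen with earlier results of these data known. A gene outside the rule was chosen after its values were seen (Bace1, Socs5, Fyn, Nrn1's values, Rhbdf1, Shc1). Deviations from the group means correlated at r = 0.70, 0.84 and 0.87 between arrays of equal number, above the limit of 0.1 for pairing, but FLX replicate 2 with VEH replicate 1 reached 0.76, so the pairing rests mainly on replicate 3. Alternatives were other filters, log2(value + 16), 2 further normalizations, trended and robust moderation, the replicate block, gene means, and arrays or pairs left out. Figures were drawn with matplotlib 3.10.9. No arrays were identical (0 pairs).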

Additional observations from a re-analysis of the deposited data

How the results depend on the processing

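None of the 6 tested neuregulin and Egfr probe sets (0) passed under any alternative run. Over all probe sets limma's count stayed at 0 except in 2 fits: with the replicate block and without replicate 2 it was 67, including 1 pathway gene, Shc1 (-1.27, against -0.85 with all arrays and no block), and with the block and without replicate 3 it was 1. With the replicate block and all arrays it was 0, with 1764 at an unadjusted p under 0.05 against 83 without the block. The block changed no call, but without it differences between replicates count as error. The SE of Nrg3, for example, was 0.51 without the block and 0.18 with it. Single arrays left out kept the count at 0. Nrg1 was positive in all 17 alternatives that could be run, from 0.23 to 0.95. As all its FLX values lay above all its VEH values, only the 2 further normalizations could have turned that sign. The lowest adjusted p of Nrg1 by limma was 0.353, with the block and without replicate 1. Nrg1 and Nrg2 were not tested when both groups had to reach 50.

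With single arrays left out, the difference ran from -0.37 to 0.10 for Nrg2, from -0.24 to 0.57 for Nrg3, from -0.95 to 0.62 for Egfr 1435888_at, from -1.38 to 0.60 for Egfr 1424932_at, from -0.40 to 0.47 for Hbegf, from -0.87 to 0.24 for Adam17 and from -0.30 to 0.56 for Adam10. Without both replicate 3 arrays, with or without the replicate block, it was 0.077 for Nrg2 and 0.28 for Hbegf, both of opposite sign to the full data. Egfr 1435888_at was at 0.12 after a second quantile normalization and at 0.42 with the block and without replicate 1, and the replicate 1 pair left out there was negative for it (-0.84). The causes of the other sign changes were not tested. Of 242 values of single probe sets under alternatives, 221 kept their sign and 0 became significant. Other filters, trended and robust moderation and the block with all arrays leave the log2 difference itself unchanged. Their values could not change sign, so the count overstates stability. Dim probe sets near 50 limit Nrg1 and Nrg2, and 3 arrays per group limit all.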

Other observations

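Rhbdf1, which encodes an inactive rhomboid protein that regulates the shedding of EGF family ligands, had replicate 3 differences of -2.87 in FLX and -3.42 in VEH arrays, close to those of Egfr 1424932_at at -2.68 and -3.26. Its difference between treatments was -0.16 (SE 1.24, or 0.19 with the replicate block). Shc1, an adaptor that binds activated Egfr and ErbB receptors, had replicate 3 differences of -2.86 (FLX) and -1.69 (VEH). Its difference between treatments was -0.85 (SE 0.92, or 0.29 with the replicate block). With the block limma gave an unadjusted p of 0.0205 and an adjusted p of 0.623. Both genes were named after their values were seen. Replicate 3 was lower in both groups in 38.8% of all tested probe sets, and by more than 2 in 4.98%. Of the 33 adaptors and downstream kinases tested 10 were lower in both and 18 higher.

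The single high VEH replicate 3 value that carried Nrg2 over the minimum was 1.71 times the highest of the other 5 arrays. A ratio of 1.5 or more in that array was seen in 3.64% of all tested probe sets and in 5.12% of those with a mean under 100 over the 6 arrays. For Nrg1 the same array was the lowest of the 6, as it was in 31.7% of all tested probe sets and in 24.3% of those with a mean under 100.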
